A study of Mus musculus with 383 samples.

Results

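Early response genes, here Egr1, Egr2, Egr3, Ier2, Ier3, Ier5, Btg1, Btg2, Zfp36 and Dusp1, were followed across single tumour cells. They were chosen by name, as 10 of the 49585 genes in the count table, by a rule that uses no measured value. Earlier results of these data were known when they were chosen. The cells came from mouse skin squamous cell carcinomas of 1 genotype, whose alleles include Lgr5CreER, an inducible Cre recombinase expressed in Lgr5-positive hair follicle stem cells, p53fl/fl and Rosa26-YFP+/+. YFP marks recombined cells, which were parted by sorting into an Epcam-positive and an Epcam-negative population. Epcam is an adhesion protein of epithelia, and the series compares tumour cells with and without it along an epithelial to mesenchymal transition. All cells, of both populations, had been released from tumour tissue by collagenase type I for 1 hour at 37 ºC, and the labels name no animal. No undissociated tissue was analysed here, so the part of dissociation in the levels of these genes was not tested. The values below rest on 325 single cells, of which 62 were Epcam-positive and the rest Epcam-negative, on 1 well set up with 50 Epcam-negative cells and on 2 wells set up without a cell. Each population is 1 sample. Cells are not replicates of a population, so no test between populations was made and intervals cover counting error only.

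Early response genes are switched on within minutes of a growth factor, a stress or a wound, from promoters that are already accessible and without new protein synthesis. Signals through the ERK kinases and the serum response factor drive many of them, and their messages are short-lived. The Egr proteins are zinc-finger transcription factors that pass the signal on to later genes. The Ier genes encode small proteins of the immediate early class, and Btg1 and Btg2 are antiproliferative adaptors of the mRNA deadenylation machinery. Zfp36 (tristetraprolin) and Dusp1 end the response: the first binds AU-rich messages and has them degraded, the second removes phosphate from p38, JNK and ERK kinases.

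Kept cells had 109743 to 730528 gene reads in the Epcam-positive (median 413142) and 104330 to 900492 in the Epcam-negative population (median 414731). Sorting labels and transcripts went together: all 10 epithelial marker genes, with Epcam at 1069 and 22.7 counts per 1000000 gene reads (CPM), were lower by at least 2-fold without surface Epcam, and all 10 mesenchymal markers, with Vim at 592 and 5809 CPM, were higher by at least 2-fold. Where a pair of values is given, the Epcam-positive value comes first unless stated otherwise. Of 7 immune and 5 endothelial marker genes, 1 of each reached 10 CPM, Cd68 at 15.3 and 7.99 CPM and Pecam1 at 13.3 and 4.603 CPM. Of the others, Cd3e was at 0.604 and 6.18 CPM, Ptprc at 0 and 0.0932 CPM, and Kdr at 0.0403 and 0.0186 CPM. The summed level of each list was 0 in the median cell of both populations, and up to 225.7 and 526.9 CPM for the immune and up to 145.4 and 199.6 CPM for the endothelial list. Of 4 pericyte markers, 1 reached 10 CPM, Rgs5 at 0 and 13.2 CPM, with 46.8% of its Epcam-negative reads in 1 cell. The summed pericyte list was at 0 in the median cell of both populations and at up to 65.6 and 8598 CPM. Of 4 melanocyte and 3 erythroid markers, 0 reached 10 CPM. The part of such cells in the results was not tested. One well set up without a cell went against its label. In plate row B, among the Epcam-positive cells, it held 99241 gene reads over 8248 genes, with Epcam at 695 CPM and 411 reads of the 10 genes. Its gene reads per spike-in read were 12.1, against a median of 221.1 in Epcam-positive cells. The empty well of the Epcam-negative rows held 4018 gene reads, 23 of them from the 10 genes.

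RefSeq promoter sequences (GRCm38.p6) were found for 7 of the 10 genes: Btg1, Btg2, Dusp1, Egr2, Ier3, Ier5 and Zfp36. In the 250 bases before each transcription start, both strands were searched for the CArG box of the serum response factor, the cyclic AMP response element TGACGTCA, the Egr binding sequence GCGGGGGCG and the TATA motif TATAAA. The CArG box stood in Egr2 and Zfp36, the cyclic AMP response element in Btg2 and Dusp1, the Egr sequence in Zfp36 and the TATA motif in Btg1. Of 32851 promoter windows of the same length, 1.47% held a CArG box, 1.55% TGACGTCA, 2.57% GCGGGGGCG and 12.4% TATAAA. The sequences below are shown because they hold these motifs, in capitals, and each reads 5′ to 3′ on the strand of its gene.
Egr2, chr10:67537484-67537513, plus strand: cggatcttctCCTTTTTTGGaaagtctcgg
Egr2, chr10:67537787-67537816, plus strand: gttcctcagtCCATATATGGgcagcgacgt
Zfp36 CArG box, chr7:28379267-28379296, minus strand: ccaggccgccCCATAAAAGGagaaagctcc
Zfp36 Egr sequence, chr7:28379315-28379344, minus strand: cgagctacgccGCGGGGGCGcgtcccggaa
Dusp1, chr17:26508520-26508722, minus strand: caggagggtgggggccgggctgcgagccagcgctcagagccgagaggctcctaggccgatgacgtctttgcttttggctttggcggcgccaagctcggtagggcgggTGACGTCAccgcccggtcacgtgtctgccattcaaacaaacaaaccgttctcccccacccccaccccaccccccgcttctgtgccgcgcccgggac
Btg2, chr1:134079156-134079405, minus strand: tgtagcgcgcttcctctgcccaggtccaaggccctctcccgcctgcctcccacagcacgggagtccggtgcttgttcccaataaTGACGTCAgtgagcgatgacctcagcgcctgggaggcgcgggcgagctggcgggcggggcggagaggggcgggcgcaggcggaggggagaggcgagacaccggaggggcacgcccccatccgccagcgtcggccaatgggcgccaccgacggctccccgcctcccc
Egr2 has 5 annotated starts, and its CArG boxes begin 72 bases before the starts that follow each of them most closely. That of Zfp36 begins 58 bases before its start. The elements of Btg2 and Dusp1 lie farther upstream of theirs. A match is a description of letters and says nothing about binding in these cells.

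The 10 genes were together more abundant in Epcam-negative cells. Their summed level was 5072 CPM in the Epcam-positive population and 7371 CPM in the other. Of the 10, 7 were higher there and 3 lower. Egr1, Egr2, Ier5, Btg2 and Zfp36 were higher by 2-fold or more, and 0 were lower by 2-fold or more. Among the 9574 genes with at least 10 CPM in either population, which 9 of the 10 reached, 15.3% were higher and 12.9% lower in Epcam-negative cells by that margin. By any margin, 4418 of them were higher and 5156 lower. The median log2 ratio of Epcam-negative over Epcam-positive cells was 0.90 for the 10 genes and -0.08 for those 9574. In the median cell the 10 genes took 0.483% of gene reads in the Epcam-positive (0.0630% to 1.02%) and 0.609% in the Epcam-negative population (0.00217% to 3.21%). With levels scaled to spike-in reads in place of gene reads, the median of all measured genes moved by -0.34 and 3 of the 10 genes, Egr1, Egr2 and Ier5, were 2-fold or more higher. Such scaling moves all genes of a population by a common factor, so the gap between the medians of the 10 and of all genes hardly can change. It was 0.97, against 0.98 by gene reads.

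**Figure D1:**
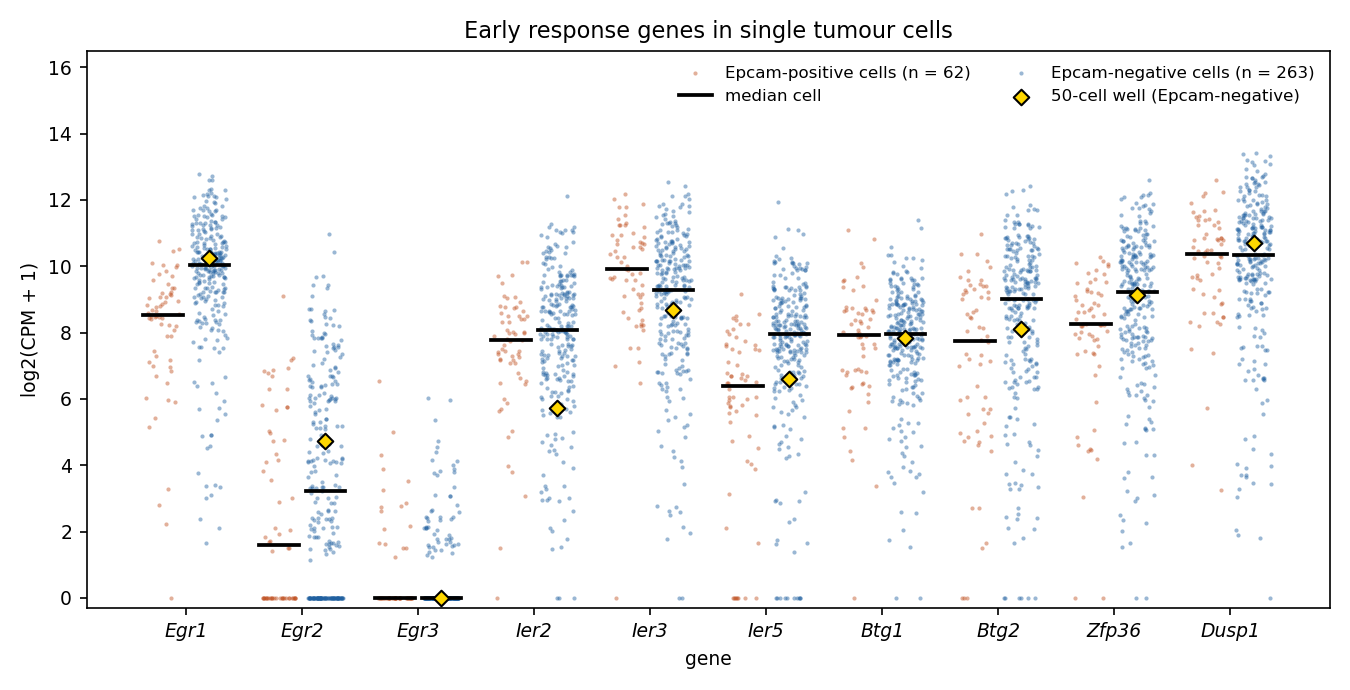
Level of each of the 10 genes in every kept cell, as log2(CPM + 1) on the vertical axis, with Epcam-positive cells on the left and Epcam-negative cells on the right of each gene, bars at the median cell and diamonds for the 50-cell well. Both populations overlap for every gene, the Egr1 medians lie at 371 and 1061 CPM, and the 50-cell diamond of Ier2 lies below the Epcam-negative bar.

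Egr1, which binds GC-rich sites in promoters and is among the most widely used reporters of recent signalling, had one of the largest differences. On chromosome 18 (ENSMUSG00000038418.7), it ranged from 0 to 1732 CPM over Epcam-positive cells, with a median of 371 CPM. Over Epcam-negative cells it ranged from 2.17 to 7060 CPM, with a median of 1061 CPM. The populations overlapped, but 26.2% of Epcam-negative cells (69 cells) lay above the highest Epcam-positive cell, and 80.2% above the Epcam-positive median. Summed over cells, Egr1 was at 431 CPM (95% Poisson interval 423.3 to 439.7) and 1348 CPM (1341 to 1355), a log2 ratio of 1.64 (1.61 to 1.67). It was nonetheless present in nearly the same share of cells, 90.3% (80.1% to 96.4%, Clopper-Pearson) and 93.9% (90.3% to 96.5%). A gene is called present with 5 or more reads after each cell is thinned to 100000 gene reads, which is 50 CPM. The difference thus lay in the level per cell: with 20 or more thinned reads asked for, Egr1 was present in 70.97% and 88.97% of cells.

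Egr2, a relative of Egr1 known from myelination and lymphocytes, was a gene of a minority of cells. On chromosome 10 from 67535475 to 67542188 (ENSMUSG00000037868.15), it reached 550 CPM in 1 Epcam-positive cell and 2022 CPM in 1 Epcam-negative cell, down to 0 in both, and the medians were 2.03 and 8.38 CPM. It was present in 14 of 62 Epcam-positive (22.6%) and 80 Epcam-negative cells (30.4%), shares whose intervals overlap (12.9% to 34.97% and 24.9% to 36.4%). The summed levels were 28.5 and 76.6 CPM, which is 1.39 (1.29 to 1.50) as a log2 ratio. The Epcam-positive cell with most reads accounted for 34.3% of them, and without it that population was at 19.1 CPM. Egr1 was present in all 80 Epcam-negative cells with Egr2, and in 12 of the 14 Epcam-positive ones. In Epcam-negative cells the median of Egr1 was 1359 CPM with Egr2 present and 943 CPM without.

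Egr3, a relative known from muscle spindles and lymphocytes, had few reads in any cell. On chromosome 14 from 70077203 to 70082614 (ENSMUSG00000033730.3), it summed to 2.82 CPM from 70 reads and to 1.99 CPM, and the median cell was at 0 in both populations. Its highest cells had 92.7 and 63.9 CPM, and the highest Epcam-positive cell alone gave 40% of the reads. It was present in 1 Epcam-positive and 2 Epcam-negative cells. The log2 ratio was -0.35 (-0.64 to -0.06), and its sign changed with the Epcam-positive cells used, being -1.30 against those of plate row A (-0.33 without the row A cell that held 28 of the 48 reads there) and 0.40 against those of rows B and C.

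Genes around the Egr factors gave no common direction. Of a list of 5, 4 were measured, of which 1 was 2-fold or more higher and 1 lower, with a median log2 ratio of 0.17. Nab2, a corepressor that binds Egr1 and is itself induced by it, was at 6.52 and 15.3 CPM (log2 ratio 1.12). F3, the tissue factor gene and a known Egr1 target, was at 136.4 and 61.4 CPM (-1.14). Id3, an inhibitor of helix-loop-helix factors, was at 825 and 1308 CPM (0.66), and Nab1, the relative of Nab2, at 112.4 and 90.1 CPM (-0.32).

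The 3 Ier genes parted in direction. Ier5, a single-exon gene on chromosome 1 from 155096361 to 155099636 (ENSMUSG00000056708.5) whose protein is known to regulate heat shock factor, had a log2 ratio of 1.68 (1.63 to 1.74). Over Epcam-positive cells it ranged from 0 to 574 CPM with a median of 82.99 CPM, and over Epcam-negative cells from 0 to 3961 CPM with a median of 246.1 CPM. Of the Epcam-negative cells, 49 (18.6%) lay above every Epcam-positive cell. Summed levels were 111.4 and 359.8 CPM, and it was present in 69.4% (56.3% to 80.4%) and 84.03% (79.03% to 88.2%) of cells.

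Ier3, on chromosome 17 from 35821684 to 35822923 (ENSMUSG00000003541.6), encodes a short protein that modulates ERK signalling and survival, and it went the other way. It ranged from 0 to 4686 CPM in Epcam-positive cells (median 958 CPM) and from 0 to 5932 CPM in Epcam-negative cells (median 622 CPM). Only 2 Epcam-negative cells exceeded the highest Epcam-positive cell, and 99 (37.6%) exceeded the Epcam-positive median. The summed levels of 1395 and 1016 CPM gave a log2 ratio of -0.46 (-0.47 to -0.44). Its direction was the same in all 19 other settings, from -0.81 to -0.32, and it did not reach 2-fold in any.

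Ier2, a single-exon gene on chromosome 8 from 84661331 to 84662852 (ENSMUSG00000053560.4) that encodes a nuclear protein, was higher in Epcam-negative cells by less than 2-fold. Its cells ranged from 0 to 1119 CPM (median 217.9 CPM) and from 0 to 4419 CPM (median 268.6 CPM). The upper part of the distributions differed more than the middle: 28 Epcam-negative cells (10.6%) were above every Epcam-positive cell. The summed levels were 298.9 and 490 CPM, a log2 ratio of 0.71 (0.68 to 0.75), while the ratio of the median cells was 1.23. Ier2 was present in 87.1% and 85.9% of cells.

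Btg1 and Btg2, a related pair, differed from each other. Btg2, on chromosome 1 from 134075170 to 134079120 (ENSMUSG00000020423.6), ranged from 0 to 2005 CPM in Epcam-positive cells (median 214.5 CPM) and from 0 to 5485 CPM in Epcam-negative cells (median 514 CPM). Among Epcam-negative cells, 69.6% were above the Epcam-positive median and 24 cells above the highest Epcam-positive cell. Its summed levels of 366 and 814 CPM gave a log2 ratio of 1.15 (1.12 to 1.18). At 5 thinned reads it had the widest gap of the 10 genes in the share of cells. It was present in 64.5% of Epcam-positive (51.3% to 76.3%) and 86.3% of Epcam-negative cells (81.6% to 90.2%). This rank depended on the limit. At 20 or more thinned reads Ier5 had a wider gap, with 19.4% and 58.9% against 50% and 70.3% for Btg2. At 1 or more, Egr2 had a wider one, with 38.7% and 53.2% against 90.3% and 95.4%. Btg1, on chromosome 10 from 96617006 to 96622809 (ENSMUSG00000036478.7), ranged from 0 to 2204 CPM (median 242.5 CPM) and from 0 to 2713 CPM (median 247.5 CPM). Its summed levels were 318.5 and 309.4 CPM (log2 ratio -0.04, from -0.08 to -0.01), and its sign changed among the settings, from -0.39 with spike-in scaling to 0.34 against plate row A with its top cell left out. It was present in 88.7% and 88.2% of cells.

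The relatives and partners of the Btg proteins stayed within 2-fold. Of 11 genes, 10 were measured and 0 passed 2-fold in either direction, with a median log2 ratio of -0.19. Tob1, another antiproliferative protein of the family, was at 76.9 and 76.4 CPM (-0.01). The deadenylase subunit genes Cnot2 and Cnot6 were at 86.4 and 47.3 CPM (-0.85) and at 200.9 and 127.7 CPM (-0.65).

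Zfp36, on chromosome 7 from 28376784 to 28380253 (ENSMUSG00000044786.6), ranged from 0 to 1240 CPM over Epcam-positive cells with a median of 302.3 CPM. Over Epcam-negative cells it ranged from 0 to 6278 CPM with a median of 599.8 CPM. With 72 (27.4%), it had more Epcam-negative cells above the highest Epcam-positive cell than any other of the 10 genes. Its summed levels were 423.2 and 903 CPM (log2 ratio 1.09, from 1.06 to 1.12), and it was present in 85.5% and 91.3% of cells. Plate columns 1 to 12 gave a log2 ratio of 0.76 and columns 13 to 24 one of 1.54. In the annotation, part of its exons overlaps those of Gm44710, and how the counting treated such bases is not given in the sources used here.

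Messages that Zfp36 is known to bind moved apart. Of a list of 9 relatives and target messages, 7 were measured, 3 were 2-fold or more higher and 1 lower in Epcam-negative cells, and the median was 0.73. Tnf, the best known target, was at 208.05 and 5.56 CPM (-4.99). Cxcl1, a chemokine, was at 2003 and 5023 CPM (1.33) and Ptgs2, the inducible cyclooxygenase, at 188.6 and 674 CPM (1.83). Il6 was at 17.9 and 182.6 CPM (3.28), and at 6.80 and 137.9 CPM without the cell with most reads in each population. The relative Zfp36l1 was at 205.4 and 342 CPM (0.73).

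Dusp1, on chromosome 17 from 26505590 to 26562128 (ENSMUSG00000024190.6), was the most abundant of the 10 genes by CPM. It ranged from 8.63 to 6263 CPM (median 1334 CPM) in Epcam-positive cells and from 0 to 11043 CPM (median 1304 CPM) in Epcam-negative cells. The median cells thus lay close together, while 16 Epcam-negative cells exceeded every Epcam-positive one. Summed levels of 1696 and 2051 CPM gave a log2 ratio of 0.27 (0.26 to 0.29). The sign depended on the setting, with -0.04 in plate columns 1 to 12, 0.74 in columns 13 to 24 and -0.08 with spike-in scaling. It was present in 96.8% and 93.2% of cells. Of its exon bases, 11 overlap those of Ergic1.

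Other phosphatases and feedback inhibitors of the ERK pathway were mixed. Of 8 ERK feedback genes, 3 were 2-fold or more higher and 0 lower in Epcam-negative cells, and the median was 0.67. Spry1 and Spry2, Sprouty inhibitors of receptor signalling, were at 24.03 and 90.5 CPM (1.87) and at 79.9 and 182.4 CPM (1.18), and Dusp4, a nuclear phosphatase of ERK, at 8.98 and 19.3 CPM (1.03). Dusp6, the cytoplasmic ERK phosphatase, went against them at 1038 and 583 CPM (-0.83). Of 6 measured other dual specificity phosphatases, 3 were higher by 2-fold or more and 1 lower, among them Dusp3 at 15.8 and 55.02 CPM (1.74) and Dusp7 at 81.7 and 25.1 CPM (-1.66). Upstream genes differed less. Of 9 measured genes of the serum response factor and ERK input, only Braf, a kinase above ERK, passed 2-fold, at 27.1 and 56.4 CPM (1.03), and the median was -0.08.

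**Figure D2:**
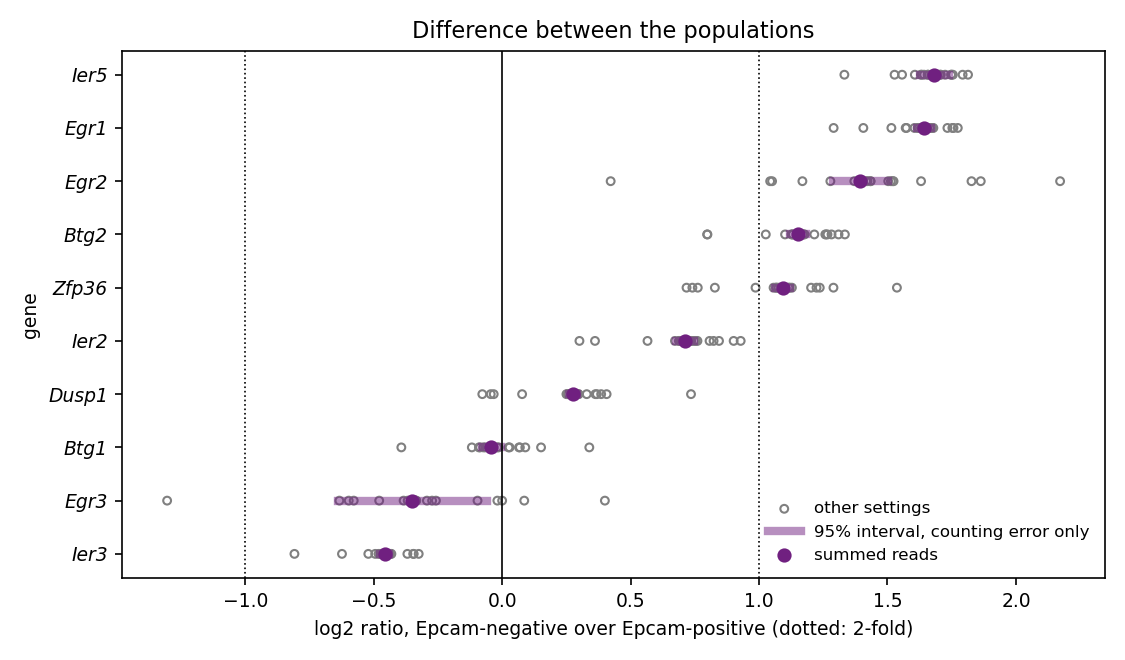
Log2 ratio of Epcam-negative over Epcam-positive level for each of the 10 genes, with filled points for summed reads, thick bars for the 95% interval of counting error and open circles for the 19 other settings. Egr1 and Ier5 stay right of the 2-fold line in every setting, Egr2, Btg2 and Zfp36 cross it in some, and Dusp1, Btg1 and Egr3 have settings on both sides of 0.

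Per exon length, the order of the genes was led by Ier3 in both populations. In CPM per kilobase of exon (RPKM), the Epcam-positive order was Ier3 at 1234, Dusp1 at 512, Ier2 at 196.4, Btg2 at 133.4, Zfp36 at 121.96, Egr1 at 96.2, Btg1 at 60.4, Ier5 at 34.01, Egr2 at 8.39 and Egr3 at 0.640. The Epcam-negative order was Ier3 at 899, Dusp1 at 620, Ier2 at 322, Egr1 at 300.7, Btg2 at 296.6, Zfp36 at 260.3, Ier5 at 109.8, Btg1 at 58.7, Egr2 at 22.5 and Egr3 at 0.453. Egr1 stood in the sixth place in Epcam-positive and the fourth in Epcam-negative cells. No counting intervals of neighbours in either order overlapped, but these leave out the spread between cells, and single cells often broke the order. Ier3 was the highest of the 10 per length in 51 of 62 Epcam-positive (82.3%) and 49.4% of Epcam-negative cells. Dusp1 led in 7 and 67 cells, Btg2 in 1 and 25, Ier2 in 1 and 15, and Egr1 in 1 and 14.

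Most cells held most of the genes. 8 or more of the 10 genes were present in 28 of 62 Epcam-positive (45.2%, 32.5% to 58.3%) and in 65.02% of Epcam-negative cells (58.9% to 70.8%). The medians were 7 and 8 genes. 4 or fewer were present in 4 Epcam-positive (6.45%) and 16 Epcam-negative cells (6.08%).

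**Figure D3:**
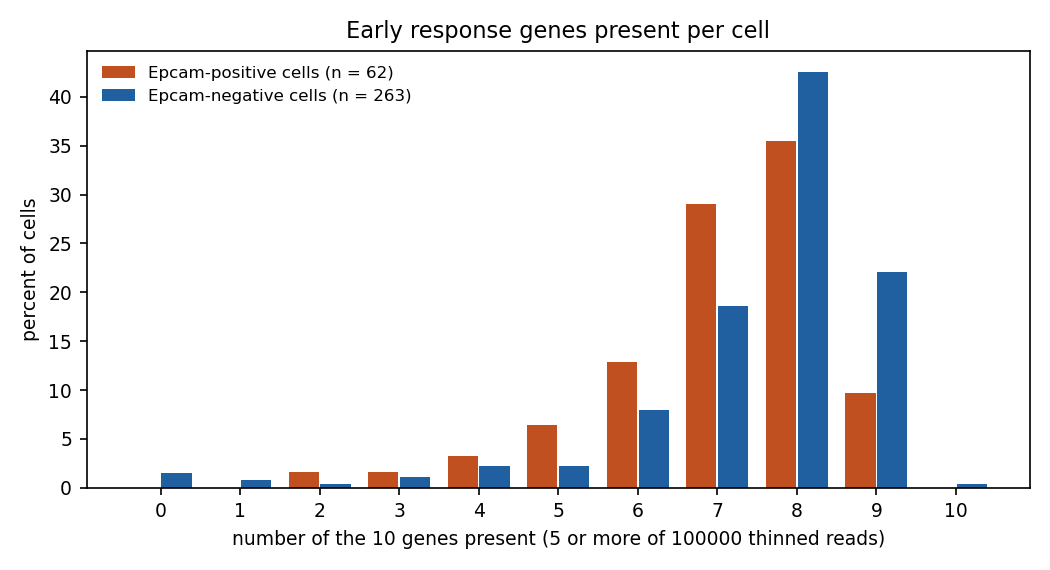
Percent of cells (vertical axis) by how many of the 10 genes were present (horizontal axis), for 62 Epcam-positive cells and all kept Epcam-negative ones. The Epcam-negative bars peak at 8 genes and are the higher ones at 8 and 9, and a small group of Epcam-negative cells stands at 0.

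In 4 Epcam-negative cells, 0 of the 10 genes were present. They were not shallow: they had 300929 to 520340 gene reads, of which 10 to 19 came from the 10 genes together. They held fewer genes, 3387 to 5804, than the median kept Epcam-negative cell, 6584. Their mitochondrial share was 2.59% to 10.6%, against a median of 4.36%. Vim was at 5058 to 10208 CPM in them, and Fos, the AP-1 gene induced with Egr1, at 5.77 to 28.2 CPM. Of the 4 cells, 3 lay in plate column 1. That column held 10 kept Epcam-negative cells, in 5 of which (50.0%, 18.7% to 81.3%) 4 or fewer genes were present, against 11 cells (4.35%, 2.19% to 7.65%) in columns 2 to 24. The median of Egr1 was 196.1 CPM in column 1 and 1070 CPM in the other columns, that of Dusp1 252.7 and 1474 CPM, and that of Fos 721 and 2247 CPM. Other values differed too. Krt14, a basal keratin, had a median of 1539 CPM in column 1 and 30.3 CPM elsewhere, and the mitochondrial share of gene reads was 6.63% and 4.27%. The median depths were 452805 and 412451 gene reads. Of the 62 Epcam-positive cells, 1 lay in column 1, and 4 of the 10 genes or fewer were present in it. The part of plate position in these values was not tested. Without column 1, the log2 ratios were 1.65 for Egr1, 1.15 for Btg2, 1.10 for Zfp36 and 0.29 for Dusp1.

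The population of a cell and its plate row cannot be told apart, since Epcam-positive cells filled rows A to C and Epcam-negative cells rows D to P. Within that limit, the summed levels of 3 genes separated the rows. For all measured genes no such share is given, so this count is not read as particular to the early response genes. Egr1 was at 391.8 to 508 CPM over the 3 Epcam-positive rows and at 865 to 1850 CPM over the 13 Epcam-negative rows. Ier5 was at 103.1 to 124.1 CPM and at 199.6 to 477 CPM, and Zfp36 at 343.02 to 549 CPM and at 553 to 1445 CPM, so that its highest and lowest rows nearly touched. By the median cell of each row, Zfp36 overlapped, at 252.9 to 458 CPM and at 213.7 to 1299 CPM. Rows of the populations overlapped for Btg2, at 292.3 to 468 CPM and 388 to 1224 CPM, and for Egr2, at 13.9 to 56.9 CPM and 12.2 to 158.3 CPM. Dusp1 spanned 1191.7 to 2940.2 CPM over the Epcam-negative rows, which includes all 3 Epcam-positive rows.

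**Figure D4:**
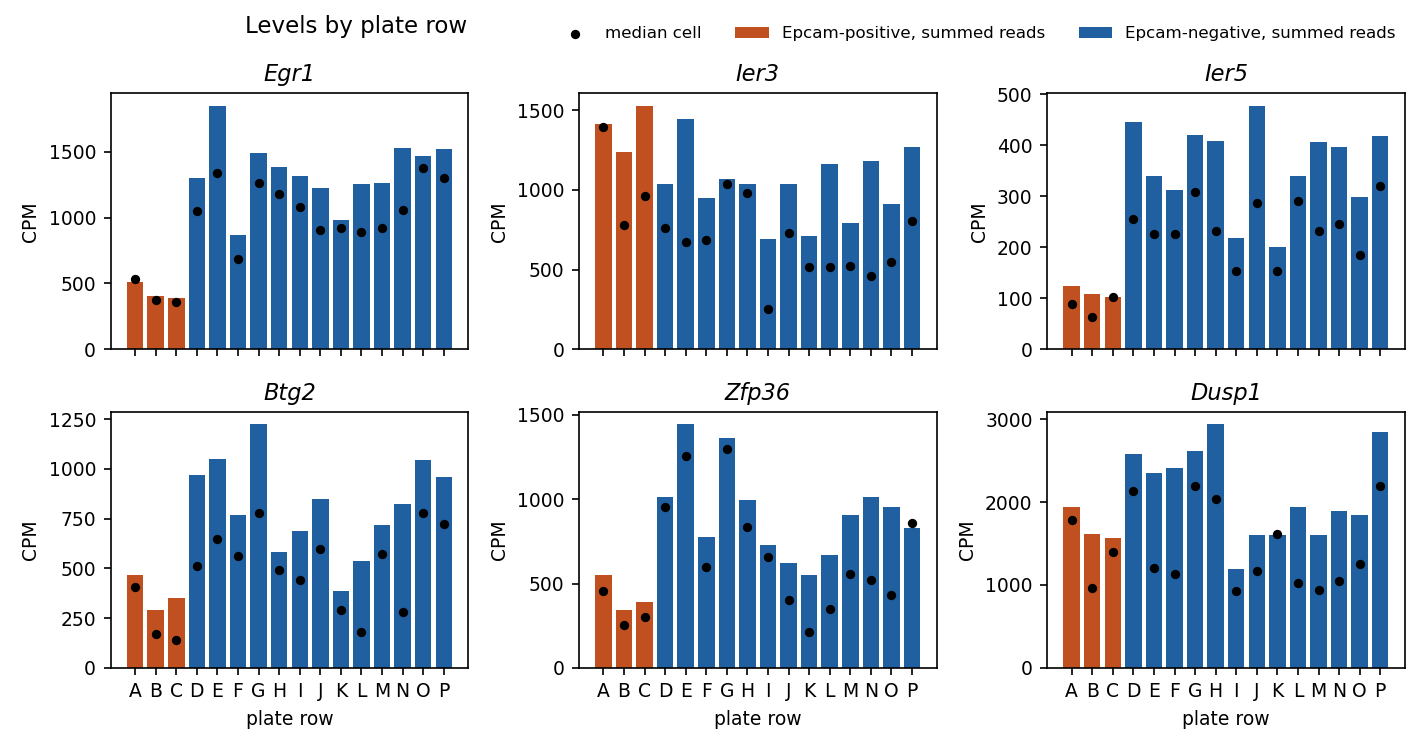
Level in CPM (vertical axes, from 0) of 6 of the genes in each plate row, with bars for summed reads and points for the median cell. For Egr1 and Ier5 every Epcam-positive row (A to C) lies below every Epcam-negative row (D to P), whereas for Ier3 and Dusp1 the rows overlap.

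Among the Epcam-positive rows, 9 of the 10 genes had a higher summed level in row A than in rows B and C together, by different amounts. No share of all measured genes is given for row A, so its counts are not read as particular to the 10 genes. Egr2 was at 56.9 CPM in the 19 cells of row A and 16.2 CPM in the 43 cells of rows B and C, Zfp36 at 549 and 369 CPM, Btg2 at 468 and 322 CPM, and Egr1 at 508 and 398.2 CPM. Ier2 and Ier3 were nearly level, at 307.3 and 295.3 CPM and at 1413 and 1388 CPM, with the highest row being B for Ier2 and C for Ier3. Btg1 was lower in row A, at 278.5 and 335.9 CPM. The median mitochondrial share was 5.26% in row A and 6.58% in rows B and C, and the median depth 439128 and 406782 gene reads. Their part in the difference was not tested. Against row A alone, 2 of the 10 genes, Egr1 (log2 ratio 1.41) and Ier5 (1.53), were higher by at least 2-fold, and Egr3 was lower by at least 2-fold. Btg2 was then at 0.80, Zfp36 at 0.72 and Egr2 at 0.42. Single cells carried several of these values. In row A, Egr2 was at 26.04 CPM in place of 56.9 CPM when 1 cell was left out. Without the row A cell with most reads of each gene the log2 ratio was 1.52 for Egr2, 1.22 for Btg2, 0.83 for Zfp36 and -0.33 for Egr3, so that 4 genes were higher and 0 lower by at least 2-fold. Against rows B and C the same 5 genes passed as with all cells, with Egr2 at 2.17 and Egr1 at 1.76.

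Levels of the genes varied together from cell to cell, with higher correlations in the Epcam-negative population. Over all 45 pairs, Spearman's rho of CPM across cells had a median of 0.29 for Epcam-negative cells (0.09 to 0.65) and 0.18 for 62 Epcam-positive cells (-0.06 to 0.47). All 45 pairs were above 0 in the Epcam-negative population and 38 in the other. No rho is given for pairs among other genes of similar level. These medians and counts, and their difference between populations, are therefore not read as particular to the early response genes. The closest Epcam-negative pairs were Egr1 and Zfp36 at 0.65, Ier2 and Zfp36 at 0.60, Zfp36 and Dusp1 at 0.60, and Egr1 and Ier2 at 0.55. In Epcam-positive cells Zfp36 was also in the closest pairs, with Btg2 at 0.47, Dusp1 at 0.47 and Egr1 at 0.45. Egr1 and Dusp1 had 0.50 in the Epcam-negative population and -0.03 in the other, and Egr1 and Ier2 had 0.55 and 0.14. These correlations describe cells of 1 plate and 1 sequencing pool, and the difference between populations was not tested. With depth, genes detected and reads per spike-in read taken out as ranks, the medians were 0.30 and 0.20.

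**Figure D5:**
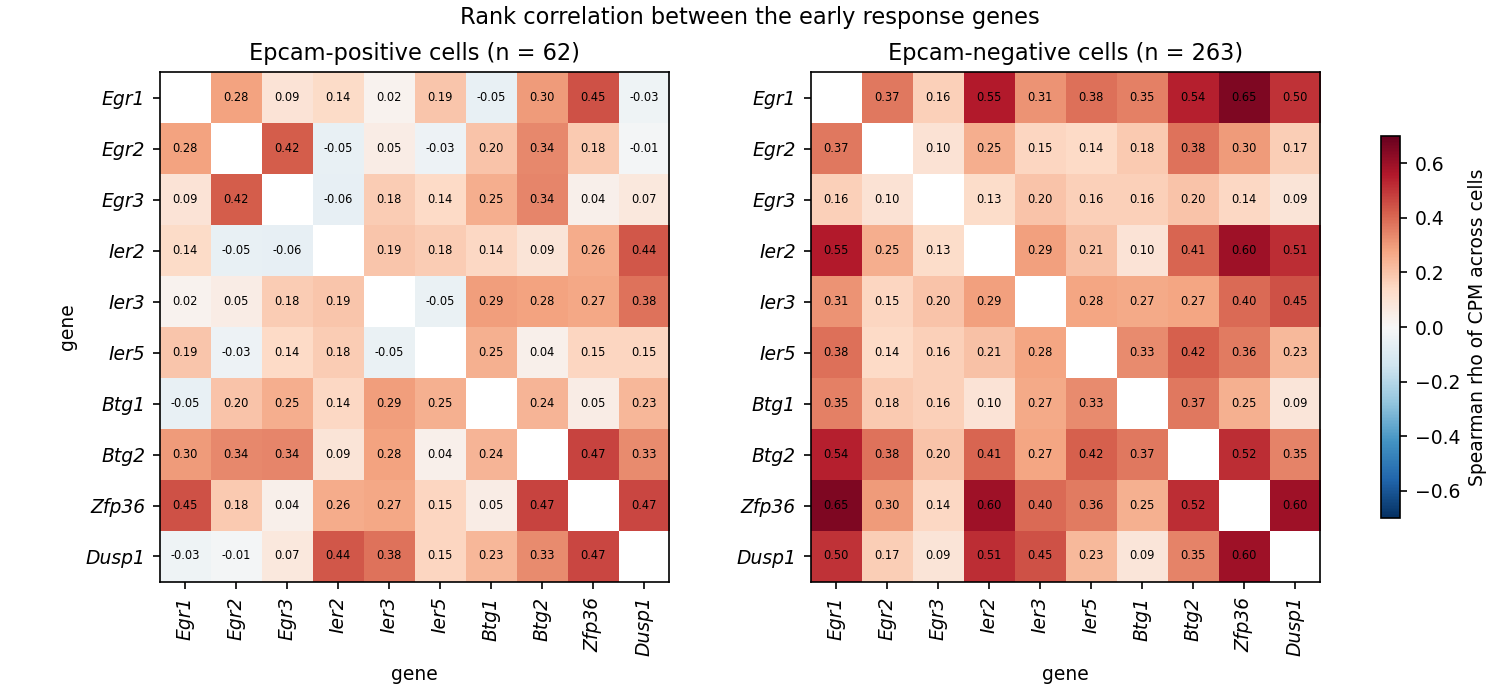
Spearman's rho of CPM for each pair of the 10 genes across 62 Epcam-positive cells (left) and the Epcam-negative cells (right), with the value printed in each square and red for positive values. The block of Egr1, Ier2, Zfp36 and Dusp1 is dark on the right, with 0.50 to 0.65, and paler on the left, with -0.03 to 0.47. On the right, the squares of Btg2 with Egr1 (0.54) and with Zfp36 (0.52) fall in the same range.

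The genes outside the 10 that followed their mean log2 level most closely in Epcam-negative cells included 4 AP-1 genes. Of 5713 genes compared, the top 8 were the AP-1 genes Junb (rho 0.70), Jun (0.56), Fos (0.56) and Fosb (0.54), then Id3 (0.53), Zfp36l1 (0.50), the orphan nuclear receptor gene Nr4a1 (0.49) and the circadian repressor Bhlhe40 (0.48). For single genes, Fos came first for Dusp1 (0.71), Zfp36 (0.64) and Ier2 (0.61), Jun for Egr1 (0.64), Junb for Ier3 (0.51), Fosb for Ier5 (0.45), Zfp36l1 for Btg2 (0.59) and the zinc-finger gene Zfand5 for Btg1 (0.50). In the 62 Epcam-positive cells, the top 8 of 5884 genes were Mindy2 (0.56), Hcar2 (0.53), Gm10499 (0.51), Atf3 (0.50), Zfand5 (0.50), Pxdc1 (0.50), Pde4b (0.48) and H2-T23 (0.46), of which Atf3 is an AP-1 gene. There, Egr1 went most closely with Atf3 (0.51), Dusp1 with the small heat shock gene Hspb1 (0.57), and Ier3 with Ndrg1 (0.65), a gene of stress and differentiation.

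With Epcam-negative cells given first, the mean of the 10 genes had a rho of -0.22 and -0.21 with the mitochondrial share, 0.14 and 0.07 with gene reads, and 0.08 in both with reads per spike-in read. With the epithelial markers it had -0.08 and 0.02. With the mesenchymal markers it had 0.28 in Epcam-negative cells, where Btg2 had 0.38, and -0.04 in Epcam-positive cells. Against 12 cell cycle genes, all lower in Epcam-negative cells and 7 of them by 2-fold or more, Btg1 had -0.38 across Epcam-positive and -0.20 across Epcam-negative cells, and Btg2 had -0.17 and -0.26. Cdkn1a, a cell cycle inhibitor, was at 541 and 258.96 CPM (log2 ratio -1.06), and its rho was 0.51 with Ier3, 0.46 with Btg1 and 0.46 with Btg2 in Epcam-positive cells. Across Epcam-negative cells these were 0.36, 0.28 and 0.23.

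Other genes of the early response had a similar leaning. Of 22 early response genes outside the 10 and outside AP-1, 19 had a higher level without Epcam, 9 by at least 2-fold, and 0 were lower by that margin, with a median log2 ratio of 0.74. Of all 9574 measured genes, 4418 were higher, and 15.3% were so by at least 2-fold. Klf2, a Kruppel-like factor, was at 6.72 and 177.3 CPM (4.53), the nuclear receptor genes Nr4a3 and Nr4a2 at 33.8 and 150.9 CPM (2.13) and at 84.1 and 316.7 CPM (1.90), and Myc at 106.5 and 275.1 CPM (1.36). Nr4a1 was at 389.6 and 891 CPM (1.19), and Klf4 at 309.97 and 405 CPM (0.39). Of 8 AP-1 genes, 2 were 2-fold or more higher and 0 lower, with a median of 0.46. Fos was at 2849 and 3345 CPM (0.23), Jun at 418 and 538 CPM (0.37), Junb at 306.7 and 453 CPM (0.56) and Fosb at 409 and 904 CPM (1.14), while Atf3 was at 1071 and 554 CPM (-0.95). Of 10 heat shock genes, which tissue digestion is also known to induce, 0 were 2-fold or more higher and 1 was lower, Hspb1 at 369 and 169.5 CPM (-1.12), with a median of -0.08. Of 11 p53 target genes, 0 were 2-fold or more higher and 1, Cdkn1a, lower, with a median of -0.05.

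The well with 50 Epcam-negative cells gave a second look at that population, from 154897 gene reads in 1 well. Egr1 was at 1207 CPM there (1040 to 1393), Dusp1 at 1672 CPM (1475 to 1889) and Btg1 at 225.96 CPM (157.4 to 314.3), within 1.37-fold of the single cells summed. Zfp36 was at 555 CPM and Ier3 at 407 CPM, lower than the single cells by 1.63-fold and 2.50-fold. Ier2 stood out with 8 reads, 51.6 CPM (22.3 to 101.8), which is 9.496-fold below the 490 CPM of the single cells, and 41 single cells were at or below it. Ier5 had 15 reads (96.8 CPM, 54.2 to 159.7) and was 3.72-fold lower, and Btg2 had 43 (277.6 CPM) and was 2.93-fold lower. Egr2 had 4 reads and Egr3 0, which allows up to 19.4 CPM. The well lay in plate column 1, whose 10 kept Epcam-negative single cells had medians of 54.5 CPM for Ier2 and 111.9 CPM for Ier5. Their medians of Egr1 and Dusp1, 196.1 and 252.7 CPM, were far below the values of the well. A well of 50 cells gives a sum over cells, which is not the same measure as a median of single cells. Over all kept Epcam-negative cells, the summed level of each of these 4 genes lay above the median cell. The values of the well and of column 1 are therefore not like for like. The part of plate position in the values of this well was not tested. With 1 such well there is no spread to set these values against.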

How the data were processed

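Smart-seq2 libraries, which hold full-length cDNA without molecular identifiers, were made from 383 wells. Part of the genotype is not reported here. The authors deposited raw counts of reads for every gene and spike-in. The submitters' processing notes name cutadapt 1.13, STAR 2.5.2b, HTSeq 0.6.0 and GRCm38. Neither the gene annotation nor the strand setting is given in the sources used here. Identifiers were given symbols and positions from GENCODE vM21, which matched 49326 of 49585.

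Cells were kept with at least 100000 gene reads, 2000 genes, at most 20% mitochondrial and at most 50% spike-in reads, which 62 Epcam-positive cells (8 did not) and 263 Epcam-negative cells (47 did not) met. Summed reads of a population were divided by its gene reads and multiplied by 1000000 (CPM). A log2 ratio sets the Epcam-negative over the Epcam-positive level, each with 1 CPM added, and 2-fold marks a call. Intervals are exact at 95%: Poisson for levels, conditional binomial for ratios, Clopper-Pearson for shares. Reads are not independent molecules. The limit for 0 reads is 3 reads of the total. Correlations are Spearman's across cells and carry no p. The calculations used Python 3.11.15, numpy 2.4.6, pandas 2.3.3, scipy 1.17.1 and, for TMM scaling, edgeR 4.0.16. The ratio and the correlation were tested on simulated data.

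The genes, gene lists and alternatives were chosen with earlier results of these data known. Named genes are all 10 early response genes, up to 4 per list with the largest absolute ratio at 10 CPM or more in either population, a fixed set (Fos, Fosb, Jun, Junb, Atf3, Nr4a1, Klf4, Myc, Dusp6, Zfp36l1, Tob1, Nab2, Cdkn1a, Epcam, Krt14, Vim), and the genes with the highest rho to the mean of the 10 (8 per population) and to each gene (3), among genes with a mean of 20 CPM and a read in 50% of cells. Some of these are left out for length. The comparisons with plate rows, plate column 1 and cells with 0 genes present were chosen after seeing the data, as were Cd3e, Ptprc and Kdr as examples of markers.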

Additional observations from a re-analysis of the deposited data

Results flagged for a closer look

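In the 8 Epcam-positive wells that did not meet the limits for cells, which no comparison above uses, Zfp36 was at 1094 CPM (987 to 1208) from 386 reads. This was above the highest level that the wells without a cell allowed for it (747 CPM, from 3 reads where a gene had 0), and above the 423.2 CPM of the kept Epcam-positive cells. In the 47 Epcam-negative wells left out, Egr1 was at 1607 CPM (1560 to 1655) from 4398 reads, above the 1387 CPM allowed by the wells without a cell and above the 1348 CPM of the kept cells. Zfp36 was at 813 CPM (779 to 847) from 2225 reads in these 47 wells, also above 747 CPM but below the 903 CPM of the kept cells. Among the 20 values of the 10 genes in the 2 sets of left-out wells, these 3 exceeded that limit with the lower end of their interval. Values that did not pass it also differed from the kept cells. In the 8 Epcam-positive wells Egr1 was at 1374 CPM (1255 to 1502) from 485 reads, above the 431 CPM of the kept Epcam-positive cells. Ier3 was at 680 CPM in these wells, below the 1395 CPM of the kept ones. For Egr1 and Zfp36 the limit was set by the empty well of the Epcam-negative rows. That well held 4018 gene reads, 1 of Egr1 and 0 of Zfp36. With so few reads, passing the limit does not tell what the left-out wells held.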

How the results depend on the processing

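No paired analysis was possible because each population is 1 sample and no result comes from a test. In all 19 other settings Egr1 and Ier5 remained higher by at least 2-fold without Epcam, as did Egr2 in 18, Btg2 in 17 and Zfp36 in 14. The count of genes 2-fold or more higher was 3 with spike-in scaling and 2 against the Epcam-positive cells of plate row A, and 4 or 5 elsewhere at that limit, with 6 genes at a limit of 1.5-fold. The count lower by 2-fold or more was 1 against row A (Egr3) and 0 elsewhere. The median ratio of the 10 genes, 0.90, was 0.94 with a stricter filter on cells, 0.97 from the mean of each cell's CPM, 0.64 from median cells, 1.03 with TMM scaling, 1.01 with median-of-ratios scaling and 0.55 with spike-in scaling. It was 0.66 in plate columns 1 to 12, 1.12 in columns 13 to 24, 0.94 without the cell with most reads of each gene, 0.55 against row A, 0.86 against row A without its cell with most reads of each gene and 1.01 against rows B and C. TMM, median-of-ratios and spike-in scaling moved the median of all measured genes by 0.13, 0.11 and -0.34. The share of all 2-fold calls that were higher was 54.3% by gene reads, 62.2% with TMM and 34.001% with spike-in scaling. The causes of these shifts were not tested. The median correlations stayed within 0.26 to 0.34 in Epcam-negative and 0.18 to 0.23 in Epcam-positive cells. Depth limits Egr3, whose presence moved from 1.61% and 0.760% of cells at 5 thinned reads to 16.1% and 8.37% at 1 read.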
